A study of Mus musculus with 2 samples.

Results

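Genes for 93 glycosyltransferases and glycan sulfotransferases were read out in wild-type mouse organoids of the small intestine, cultured either with RankL or without it. The genes were every mouse symbol beginning with Fut, Galnt, Gcnt, B3gnt, B3galt, B4galt, B4galnt, St3gal, St6gal, St6galnac, St8sia, Mgat or Chst and then a digit, found through the RefSeq accession of each array probe. They had 145 of the 41174 probes on the array. The naming pattern uses no measured value, but it was chosen with earlier results of these data known, the large ratio of Fut7 among them, so the values below are a description. Of the 93 genes, 46 were measured, meaning that a probe was well above background in RankL RNA on both arrays or in untreated RNA on both. One entry, Fut4-ps1, is annotated as a pseudogene of Fut4, and Chst genes encode sulfotransferases, which add sulfate and no sugar.

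Organoids are epithelial structures grown from crypts, here in medium with EGF, Noggin and R-spondin for both groups. Recombinant mouse RankL, a cytokine of the TNF family that acts through the receptor RANK, was used at 50 to 200 ng/ml, with medium renewed on day 2 and day 5. The labels give neither the exact dose and harvest time nor how many mice stand behind each RNA. The data were 2 dual-colour arrays of 1 RNA pair, with RankL RNA labelled green (Cy3) on array 1 and red (Cy5) on array 2, the dye swap. There was therefore 1 replicate per group and no test, and every ± below is the SD of the arrays, which covers technical error and no spread between cultures. Values are log2 ratios of RankL over untreated unless a signal is named, and signals are normalised log2 intensities that can be compared within a gene only. All 6 epithelial markers looked at (Epcam, Cdh1, Krt8, Krt18, Vil1 and Cdx2) were well above background in both RNAs on both arrays.

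Surface and secreted proteins of the gut epithelium carry sugar chains that are built stepwise in the Golgi. Galnt enzymes start mucin-type chains by placing GalNAc on serine or threonine, while Mgat enzymes branch the chains attached to asparagine. Gcnt, B3gnt, B3galt and B4galt enzymes branch and lengthen chains, and Fut, St and Chst enzymes finish them with fucose, sialic acid or sulfate. These ends are what selectins, bacteria and viruses bind. M cells, which RankL induces, have long been recognised by lectins that bind fucose.

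The size rule asked for a mean log2 ratio of 1 or more in either direction (2-fold) and, with the same sign, for 0.5 or more on both arrays. Fut7, Chst8, St3gal1, Gcnt2 and Chst1 were higher with RankL by this rule, and St3gal6 and Galnt6 were lower. These 5 higher genes were 10.9% of the 46 measured, against 5.47% of all 12877 measured genes. The 2 lower genes were 4.35% of the 46, against 2.5% of all. The other 39 genes met the rule in neither direction. Above 0 lay 18 of the 46, against 51% of all measured genes, and below 0 lay 28, against 49%. Their median was -0.05, with -0.10 from array 1 and -0.12 from the dye swap, against 0.0086 over all measured genes. Most of the family lay near 0, with a few genes far from it. The median SD between arrays was 0.12 for the 46 genes, and the largest was 0.50, for Gcnt2. With the sign of the dye swap left unturned, 0 of the 46 genes met the rule.

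The rule's count depended on how dim signals were handled. With a smaller background offset (16 in place of 50), 7 genes were higher and 5 lower, against 6.87% and 3.32% of all measured genes. With the scanner software's own ratios, 8 were higher and 5 lower, against 8.92% and 6.07% of all. All 7 genes named above met the rule in both settings. Those added in both were St6gal1 and St6galnac6 (higher) and Fut8, Galnt7 and Gcnt3 (lower), and the software's ratios also added Fut4 (higher). Requiring both RNAs to be well above background left 36 measured genes, with Fut7 and Gcnt2 higher and St3gal6 and Galnt6 lower, against 4.64% and 2.47% of all genes so measured. A looser threshold (0.6 for the mean) gave 7 higher and 7 lower, against 10.4% and 6.83% of all.

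**Figure D1:**
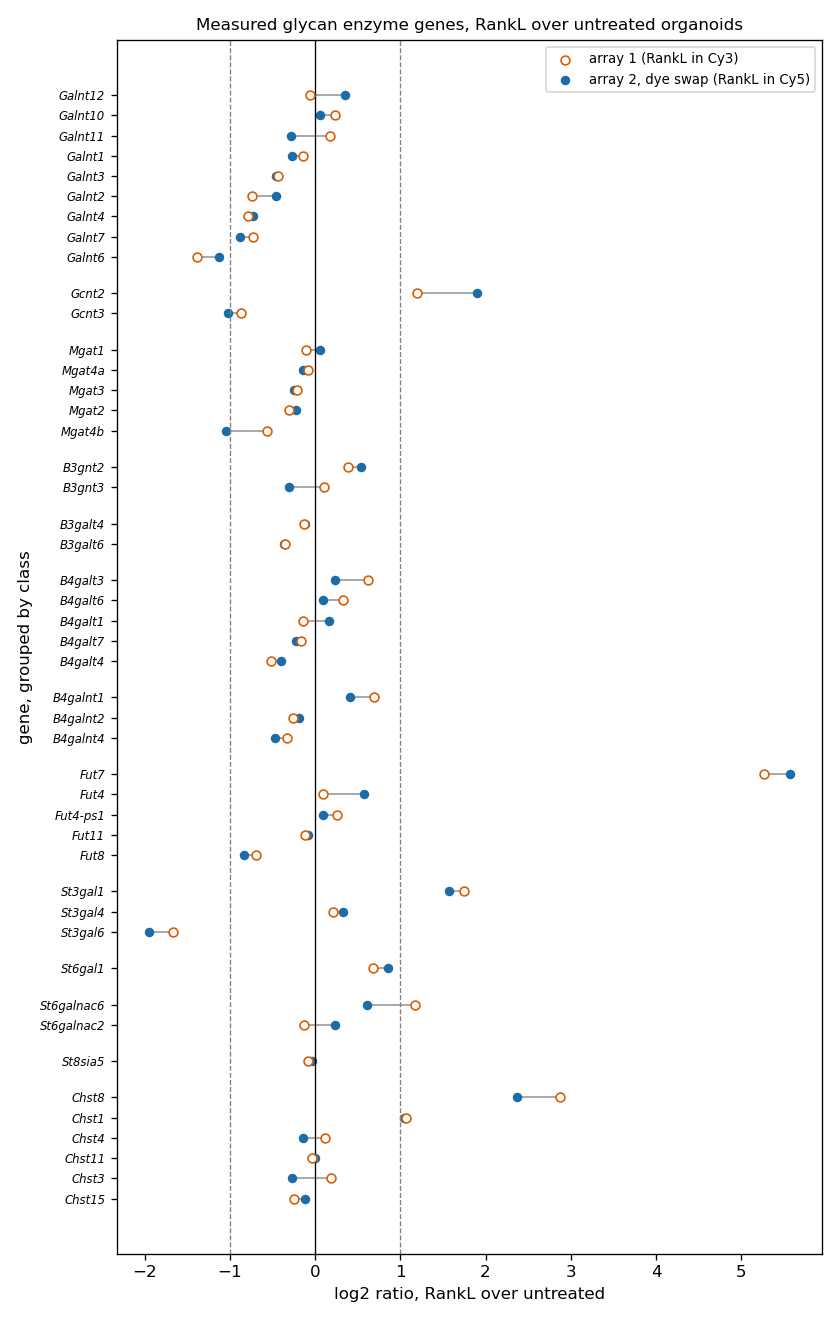
Log2 ratio of RankL over untreated (x axis) for the 46 measured genes, grouped by class down the page. Open circles are array 1, filled circles the dye swap, and dashed lines mark 2-fold. Fut7 stands at 5.27 and 5.57, and Chst8 at 2.87 and 2.37, while most genes lie within the dashed lines on both arrays.

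Fut7 had the largest measured ratio of the family. It encodes the fucosyltransferase that adds the last sugar of sialyl Lewis x, the selectin ligand of leukocytes. Its signal was 12.36 and 12.49 in RankL RNA on arrays 1 and 2, against 7.09 and 6.92 in untreated RNA. The RankL and untreated signals were far apart on both arrays, and all 4 were well above background. The ratio was 5.27 on array 1 and 5.57 on array 2, a mean of 5.42 ± 0.21 or 42.8-fold, and it ranged from 5.27 to 6.34 over the processing alternatives. It ranked 7 among the 12877 measured genes.

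No other Fut gene came near it. Of the 8 others with a probe, 4 were measured, with a median of 0.04 and a range from -0.76 to 0.34, so that Fut7 lay 5.09 above the highest of them. Over all 16 probes of these 8 genes, dim ones included, the range was the same. Fut8, which adds the core fucose of N-glycans, was lowest. Its signal was 6.74 and 6.46 in RankL RNA, against 7.43 and 7.28 in untreated RNA, a ratio of -0.76 ± 0.094. It fell short of the size rule but was lower on both arrays, and read -1.69 with the scanner software's ratios. A second Fut8 probe, dim in every channel, read -0.11.

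Fut4 also fucosylates lactosamine chains and makes Lewis x. Its signal was 6.70 and 6.95 in RankL RNA, against 6.60 and 6.38 in untreated RNA, which was above background on 1 of 2 arrays. The ratio of 0.34 ± 0.34 was no larger than the SD between arrays. Fut4-ps1 was at 0.17 ± 0.12 and shares sequence with Fut4, so its probe may bind both transcripts. Fut11 was at -0.096 ± 0.024, with RankL RNA above background on neither array, and at least 1.07-fold lower.

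Fut1, Fut2, Fut9 and Fut10 were not measured. Fut2 makes the blood-group H structure on gut epithelium. Its brighter probe read 7.58 and 6.39 in RankL RNA on arrays 1 and 2, against 7.76 and 6.35 in untreated RNA. That spot was well above background in both RNAs on array 1 and in neither on array 2, and its ratio was -0.069 ± 0.16. The second Fut2 probe was above background in no channel and read -0.046. Fut1, the other enzyme of the H structure, was at -0.015 and Fut9, which makes Lewis x, at -0.16 by its brightest of 5 probes, with no signal above background. Fut10 was at -0.032 and -0.044 by its 2 probes, also above background in no channel.

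**Figure D2:**
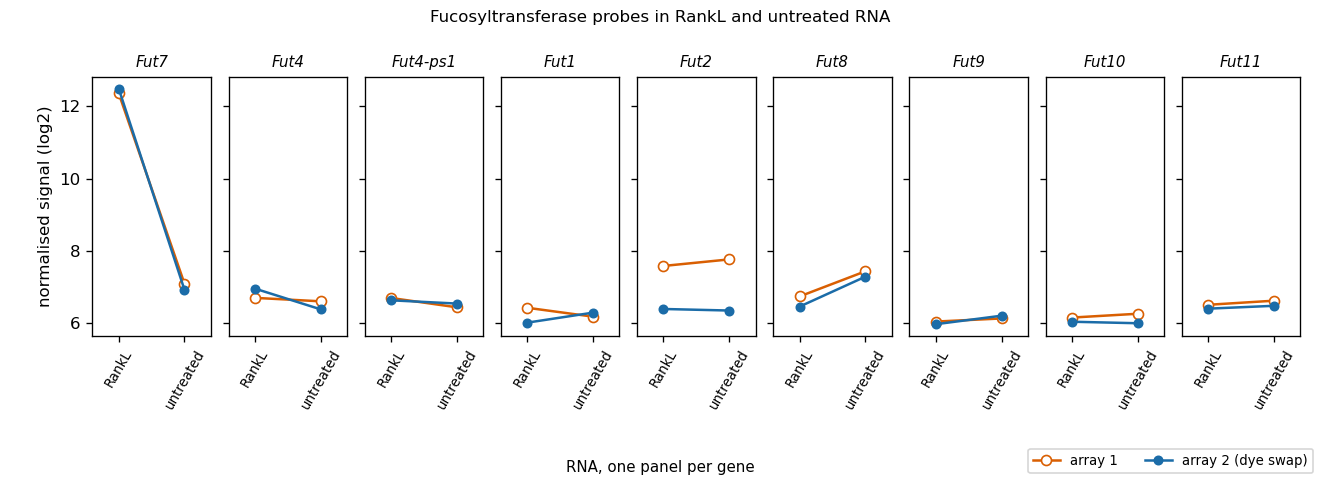
Normalised log2 signal (y axis) of 1 probe per Fut gene, the brightest measured one where a probe was measured, in RankL RNA (left) and untreated RNA (right), with a line per array. Fut7 signals are 12.36 and 12.49 with RankL and 7.09 and 6.92 without, while no other gene differs by 1 or more between the RNAs on either array and Fut8 is lower with RankL.

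Leukocytes are the textbook site of Fut7, and most of their markers were near background. Of 11 leukocyte markers with a probe, 8 were above background in no channel, among them Ptprc, the pan-leukocyte phosphatase CD45. The 11 markers had a summed linear signal of 879 and 866 in RankL RNA, against 804 and 827 in untreated RNA. With 8 of 11 probes at background, most of that sum is background, so it could hardly differ between the RNAs. The markers measured were Ncf1 at 0.52 ± 0.24 and Coro1a at 0.50 ± 0.016, and 0 of them met the size rule. Untreated RNA was above background on neither array for Ncf1 and on 1 of 2 for Coro1a, so these ratios may understate a difference. M cell markers were higher with RankL. All 7 met the rule upwards, against 5.47% of all measured genes, with a median of 4.21. These markers were listed with earlier results of these data known, so their count is a description. Their summed signal was 56806 and 58748 in RankL RNA, against 2755 and 2196 in untreated RNA. Of 4 Paneth cell markers, 2 were higher and 1 lower by the rule, against 5.47% and 2.5% of all measured genes. Mmp7 at 3.12 ± 0.13 and Lyz1 at 1.46 ± 0.15 were higher, and Itln1 at -1.71 ± 0.12 was lower. Wnt3 was short of the rule at 0.24 ± 0.15. Their summed signal, to which Mmp7 and Lyz1 contribute most, was 5295 and 5407 in RankL RNA, against 1806 and 1747 in untreated RNA. The part of leukocytes, M cells and Paneth cells in the ratios of the glycan genes, Fut7 included, was not tested. In bulk RNA, a change in the number of cells of a type and a change in RNA per cell cannot be told apart.

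Promoter sequence was looked at for Fut7 because its ratio stands apart, and RefSeq lists a pair of start sites for it on chromosome 2 (build GRCm38.p6, plus strand, 250 bases before to 50 after each start). Capitals mark matches to GAGGAA on either strand, the core that Spi-B and its relatives of the Ets family prefer. The NF-kB consensus was also searched on both strands, with no match in these windows.
Fut7, chr2:25422992-25423291: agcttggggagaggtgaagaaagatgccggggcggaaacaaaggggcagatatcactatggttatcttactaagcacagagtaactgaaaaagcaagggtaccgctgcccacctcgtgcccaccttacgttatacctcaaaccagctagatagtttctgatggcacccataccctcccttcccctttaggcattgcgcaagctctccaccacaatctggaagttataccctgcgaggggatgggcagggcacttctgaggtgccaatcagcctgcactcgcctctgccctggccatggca
Fut7, chr2:25423444-25423743: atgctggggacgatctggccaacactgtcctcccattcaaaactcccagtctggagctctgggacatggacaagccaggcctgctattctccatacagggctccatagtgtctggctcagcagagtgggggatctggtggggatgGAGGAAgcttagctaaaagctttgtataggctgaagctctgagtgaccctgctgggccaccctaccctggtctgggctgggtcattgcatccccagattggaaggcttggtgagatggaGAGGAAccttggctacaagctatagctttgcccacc
The second window held 2 matches, beginning -105 and 14 bases from the start. GAGGAA was present in 28.3% of all 32851 RefSeq promoters of this length, and the NF-kB consensus in 8.46%. A match is a description of letters only.

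Sialyltransferases went both ways. Of 19 genes, 7 were measured, 5 above 0 and 2 below, with 1 higher and 1 lower by the size rule. Of all measured genes, 51% lay above 0 and 49% below, with 5.47% higher and 2.5% lower by the rule. St3gal1 caps the Gal of O-glycan cores with sialic acid. Its signal was 8.26 and 8.09 in RankL RNA, against 6.51 and 6.52 in untreated RNA, which was not well above background on either array. RankL RNA was the higher on both arrays, and the ratio was 1.66 ± 0.12. Because untreated RNA was dim, this is a bound, at least 3.16-fold higher. A bound sets the bright RNA against the dimmest signal called well above background. Where the probe's own signal is higher, as for St3gal1, that signal is used instead. Bounds are means over both arrays, without allowance for technical error.

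St3gal6 was the lowest of the 46 genes. It sialylates lactosamine ends, the substrate that Fut7 then fucosylates. Its signal was 7.19 and 6.98 in RankL RNA, against 8.86 and 8.94 in untreated RNA. The signals were well above background in all 4 channels, lower with RankL on both arrays, and gave a ratio of -1.81 ± 0.20 or 3.50-fold lower. St3gal4, which acts on the same ends, was at 0.27 ± 0.081 with a second probe at 0.063. St3gal1 and St3gal6 thus had the highest and the lowest measured ratio of the 7 sialyltransferases, although both belong to the St3gal class. The highest place is not settled, since St3gal1 and St6galnac6 have bounds only. With the scanner software's ratios they read 3.40 and 3.47. St3gal2, St3gal3 and St3gal5 were not measured.

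St3gal6 is shown because 1 of its promoters, on the minus strand of chromosome 16, holds the single NF-kB match among the 11 promoters listed for 6 of the 7 genes that met the size rule. The match, in capitals, begins -123 bases from the start.
St3gal6, chr16:58523377-58523676: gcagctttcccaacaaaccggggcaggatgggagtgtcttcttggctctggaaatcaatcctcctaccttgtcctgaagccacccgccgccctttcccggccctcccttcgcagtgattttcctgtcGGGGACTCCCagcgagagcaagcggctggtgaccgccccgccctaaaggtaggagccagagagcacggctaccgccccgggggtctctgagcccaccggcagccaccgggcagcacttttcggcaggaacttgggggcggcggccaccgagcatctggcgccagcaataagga
GAGGAA was found in 2 of the 11 windows (18.2%), 1 of Fut7 and 1 of Galnt6, which was lower with RankL. It was in 35.4% of the 48 promoters listed for measured genes of the family, against 28.3% of all RefSeq promoters. The NF-kB consensus was in 9.09% of the 11 windows and 6.25% of these 48, against 8.46% of all.

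By their brightest measured probe, all 3 measured St6gal and St6galnac genes lay above 0, against 51% of all measured genes, and 0 met the rule. St6gal1, which sialylates N-glycans, had a signal of 7.16 and 7.21 in RankL RNA, against 6.48 and 6.36 in untreated RNA. It was higher on both arrays at 0.77 ± 0.12, with a dim second probe at 0.032. St6galnac6, an enzyme of gangliosides and disialyl Lewis structures, had a signal of 7.29 and 6.77 in RankL RNA, against 6.12 and 6.17 in untreated RNA. It was not well above background without RankL on either array, so its ratio of 0.89 ± 0.40 is a bound of at least 1.79-fold on average. On array 2 alone the ratio was 0.61. A second St6galnac6 probe, dim in every channel, read 0.11. St6galnac2, which sialylates the first sugar of mucin chains, was at 0.053 ± 0.25, inside its spread. Its second measured probe read -0.12, and with median centring the gene read -0.14, so its sign is not settled. St8sia5, an enzyme of gangliosides and the 1 measured St8sia gene, was at -0.058 ± 0.039.

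Among sulfotransferases, 2 of 6 measured genes met the rule upwards, against 5.47% of all measured genes, and 4 were close to 0. Chst8 places sulfate on GalNAc, best known from the N-glycans of pituitary hormones. Its signal was 9.30 and 8.99 in RankL RNA, against 6.42 and 6.62 in untreated RNA, which was above background on 1 of 2 arrays. The measured ratio was 2.62 ± 0.36, or 6.16-fold, and more than 2 on each array. Because untreated RNA was dim on 1 array, and St3gal1 and Chst1 have bounds only, the order of these genes is not settled. Chst1, a galactose sulfotransferase of keratan sulfate, had a signal of 7.29 and 7.03 in RankL RNA, against 6.22 and 5.99 in untreated RNA. It was dim without RankL on both arrays, at 1.06 ± 0.014, or at least 1.96-fold higher. It lay just inside the rule, and St6galnac6 and Gcnt3 (-0.95) lay just outside it. The remaining measured genes ran from -0.18 ± 0.089 for Chst15 to -0.018 ± 0.18 for Chst4, which sulfates selectin ligands of high endothelial venules. Chst11 and Chst3, enzymes of chondroitin sulfate, were at -0.023 ± 0.025 and -0.041 ± 0.33. The other 7 Chst genes were not measured.

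**Figure D3:**
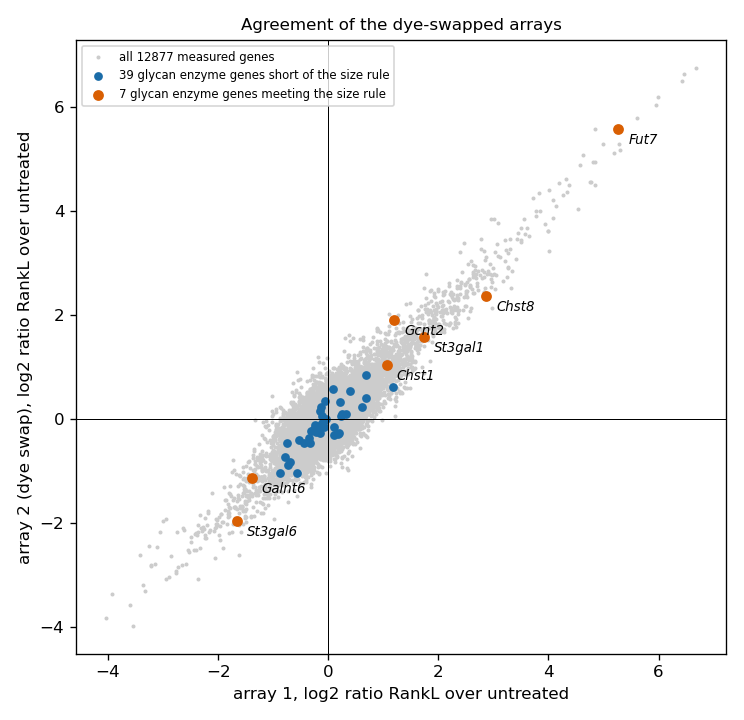
Log2 ratio of RankL over untreated on array 1 (x axis) and on the dye swap (y axis). Grey points are all 12877 measured genes, blue points the 39 glycan enzyme genes short of the size rule and orange points the 7 that met it, from St3gal6 at -1.67 and -1.95 to Fut7 at 5.27 and 5.57.

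The chain-starting Galnt genes leaned the opposite way to Fut7. Of 15 genes, 9 were measured, and 7 of these 9 lay below 0, against 49% of all measured genes. Below 0 on both arrays were 6 of the 9, against 35.1% of all. The class median was -0.45, with -0.44 from array 1 and -0.46 from the dye swap, and stayed below 0 in every alternative tried, though at -0.060 when dim probes were included. Galnt6 met the size rule. Its signal was 8.89 and 8.97 in RankL RNA, against 10.28 and 10.10 in untreated RNA, a ratio of -1.26 ± 0.19. A second Galnt6 probe was lower on both arrays too, at -0.98.

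Galnt7, Galnt4, Galnt2 and Galnt3 followed below 0. Galnt7, which prefers peptides that already carry a GalNAc, had a signal of 6.24 and 6.21 in RankL RNA, against 6.97 and 7.09 in untreated RNA. RankL RNA was not well above background on either array, so its -0.81 ± 0.11 is a bound of at least 1.75-fold lower, and its second, dimmer probe read -0.57. Galnt4 was at -0.76 ± 0.043, Galnt2 at -0.60 ± 0.20 with a second probe at -0.54, and Galnt3 at -0.45 ± 0.020. None of these 4 met the rule, and each was lower on both arrays. Galnt1 was at -0.21 ± 0.092 and Galnt11 at -0.051 ± 0.33, within its spread. The class was not uniform, since Galnt12 was at 0.15 ± 0.30 and Galnt10 at 0.15 ± 0.13. Galnt9, Galnt13, Galnt14, Galnt16, Galnt17 and Galnt18 were not measured.

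Branching genes split between Gcnt2 and Gcnt3. Gcnt2 makes the branches of the blood-group I structure on lactosamine chains. Its signal was 8.40 and 8.74 in RankL RNA, against 7.20 and 6.84 in untreated RNA. The RankL signals were the higher on both arrays, and the ratio was 1.55 ± 0.50. A second Gcnt2 probe, dim in every channel, read 0.050. Gcnt3 builds the branched cores of gut mucins. Its signal was 6.46 and 6.36 in RankL RNA, not well above background on either array, against 7.33 and 7.38 in untreated RNA. It missed the rule at -0.95 ± 0.11, or at least 1.93-fold lower, and Gcnt1 was not measured.

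All 5 measured Mgat genes lay below 0, against 49% of all measured genes, and 4 of them did so on both arrays, against 35.1% of all. Their median was -0.23, and 0 of the 5 met the size rule. Mgat4b, which adds a branch to N-glycans, was the lowest. Its signal was 11.82 and 11.79 in RankL RNA, against 12.39 and 12.83 in untreated RNA, a ratio of -0.80 ± 0.34. Its second probe, at -1.04, would have met the rule, so the call rests on which probe stands for the gene. Mgat1, which opens the way to complex N-glycans, was at -0.025 ± 0.12, within its spread. Mgat2, Mgat3 and Mgat4a ran from -0.27 to -0.11, and 6 Mgat genes, Mgat5 among them, were not measured.

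Extension genes stayed within 0.5 of 0, and 0 of 9 measured met the rule. In the B4galt class, which makes lactosamine and glycolipid or proteoglycan linkers, B4galt3 was highest at 0.43 ± 0.27 and B4galt4 lowest at -0.46 ± 0.089. B4galt1, the main galactosyltransferase of lactosamine, was at 0.0067 ± 0.22, with its other probes at -0.16 each. B4galt6, which makes lactosylceramide, was at 0.21 ± 0.16, and B4galt7, of the proteoglycan linker, at -0.19 ± 0.041. B3gnt2, the main enzyme of long lactosamine chains, was at 0.46 ± 0.11, and B3gnt3, which extends mucin cores, at -0.10 ± 0.29. B3galt4, of gangliosides, was at -0.12 ± 0.0095, and B3galt6, of the proteoglycan linker, at -0.36 ± 0.013. In the B4galnt class, B4galnt1, which makes gangliosides, was highest at 0.55 ± 0.20. B4galnt4, which makes the GalNAc-bearing ends that Chst8 can sulfate, was lowest at -0.40 ± 0.093, and B4galnt2, of the Sd(a) structure of the gut, was at -0.22 ± 0.051.

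The 47 genes not measured had small ratios. By their brightest probe they ran from -0.30 for Galnt17 to 0.32 for St3gal2, and 0 would have met the size rule. Of these, 42 were well above background in no channel. With the offset used, a dim probe is pulled towards 0, so these values do not show that the genes were unchanged.

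Enzymes and carriers that serve these chains were looked at in a list of 56 genes outside the naming pattern, 36 of them measured. By the size rule 1 was higher and 1 lower, against 5.47% and 2.5% of all genes, and the median of the list was -0.032. Gmds, the first enzyme of GDP-fucose synthesis, was lower at -1.20 ± 0.17. The other measured fucose donor genes were short of the rule, with Gfus at -0.41 ± 0.29, Fcsk at -0.27 ± 0.0014 and the Golgi carrier Slc35c1 at -0.21 ± 0.12. Fpgt had a probe but was not measured. All 4 measured genes of this group were below 0, against 49% of all measured genes, and 1 of the 4 met the rule. Of the 5 sialic acid donor genes 0 met the rule and 4 were below 0, against 49% of all measured genes. They ran from Gne, the first enzyme of the route, at -0.61 ± 0.39 to Nans, which makes the sialic acid phosphate, at 0.65 ± 0.024, with Cmas, which activates sialic acid, at -0.38 ± 0.18. Nans was the gene farthest from 0 and was higher on both arrays, with a second probe at 0.39. The 8 measured galactose and GlcNAc donor genes had a median of 0.12, and the 2 measured sulfate donor genes a median of -0.17. In each of these groups 0 genes met the rule, against 5.47% higher and 2.5% lower of all genes.

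Of 7 measured mucins and selectin ligand proteins, 1 met the rule upwards, against 5.47% of all measured genes, and their median was 0.55. Cd34, a sialomucin that can carry selectin ligands, was at 1.51 ± 0.23, with untreated RNA dim on both arrays, and at least 2.45-fold higher. Of 7 endothelial and stromal markers 6, Pecam1 and Cdh5 among them, were above background in no channel. The exception was Col1a2 at 0.17 ± 0.17, and the summed, mostly background signal of all 7 was 672 and 605 in RankL RNA, against 628 and 588 in untreated RNA. Selplg, the classical protein carrier of sialyl Lewis x, was at -0.074 ± 0.021. Muc2, the secreted gel-forming mucin, was at -0.30 ± 0.23, and C1galt1c1, the chaperone of the core-forming galactosyltransferase, at 0.73 ± 0.050. C1galt1 itself had a probe but was not measured. Goblet cell markers split beside the Galnt and Gcnt3 values, with a median of -0.30. Of 7 measured, Clca1, Fcgbp and Zg16 were higher by the rule and Agr2 lower, against 5.47% and 2.5% of all measured genes. Muc2, Tff3 at -0.34 ± 0.099 and Spdef at -0.37 ± 0.088 were short of the rule and lower on both arrays. With Agr2, 4 of 7 lay below 0, against 49% of all measured genes. The summed signal of the 7, to which bright probes such as Tff3 and Fcgbp contribute most, was 17787 and 16971 in RankL RNA, against 15824 and 16773 in untreated RNA. Their part in the Galnt and Gcnt3 ratios was not tested.

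**Figure D4:**
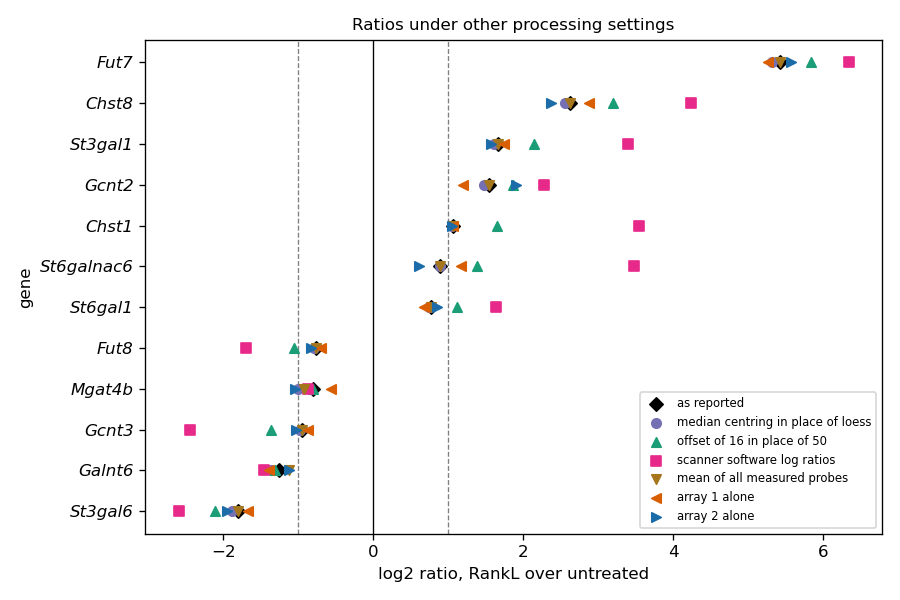
Log2 ratio of RankL over untreated (x axis) for 12 glycan enzyme genes under the reported processing (diamonds) and 6 alternatives. Dashed lines mark 2-fold. Every symbol of a gene lies on 1 side of 0, and the scanner software's ratios lie farthest out for genes dim in 1 RNA, such as Chst1 at 3.55 against 1.06.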

How the data were processed

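Total RNA of the organoids was hybridised to 2 dual-colour Agilent arrays of the same slide, which leaves no batch to test. The deposited scanner files hold spot and local background intensity as median pixel brightness in Cy3 and Cy5, without normalization, per the file headers. The software was Agilent Feature Extraction, version 10.5.1.1 per the file headers and 8.5.1.1 per the submitters' processing notes. Its deposited log10 ratio per spot, background-subtracted and dye-normalized per the file headers, served as an alternative. The series matrix holds the same ratios as RankL over untreated, uncentred (all 45018 spots within 0.001, column medians 0).

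Median spot signals were corrected with normexp (offset 50) and normalized by loess within each array in limma 3.58.1 (R 4.3.3), with 1639 control spots at weight 0. Outlier spots (170 and 164) were left out, and 0 were saturated. Array 1 was sign-turned to give RankL over untreated, and both arrays were averaged as 1 replicate. Of non-control spots, 38.3% and 43.4% were well above background in RankL RNA on arrays 1 and 2, and 39.6% and 40.1% in untreated RNA, which with 1 RNA pair limits the precision. A gene took its measured probe of highest mean intensity. Signals and bounds are single-channel values after loess and then Aquantile. Symbols came from RefSeq accessions (GRCm38.p6) for 65.4% of probes. Probes without a symbol were counted under their own array name. Of the 12877 measured genes, 10399 had a symbol, and the rest may count a gene more than once. Promoters are from RefSeq for the same build. The method was tested on simulated intensities, with changes planted only in probes of higher intensity. Probes dimmer than these were not covered. Genes named are those meeting the size rule, all Fut genes, and, in each class, the highest, the lowest and that of highest intensity, with others named after their values were seen. The genes, lists and rule were chosen with earlier results of these data known. Alternatives were another offset, median centring, the software's ratios, other filters on dim probes, the mean of probes, each array alone and a looser size threshold.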

Additional observations from a re-analysis of the deposited data

How the results depend on the processing

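All 7 genes that met the size rule kept it in every alternative that measured them, and none of the 7 changed sign. The exception is the requirement that both RNAs be well above background, which leaves Chst1, Chst8 and St3gal1 unmeasured by construction. The cause of the other changes was not tested. With the scanner software's ratios, 8 and 5 of the genes were higher and lower in place of 5 and 2, and 1148 and 781 of all genes in place of 704 and 322. The pathway list then had 4 genes higher in place of 1 and a median of -0.16, and class medians were -0.083 (Gcnt), -0.44 (Mgat), -0.44 (B3galt), -0.62 (B4galnt), 0.57 (Fut), 1.63 (St6gal), 1.75 (St6galnac) and -0.13 (St8sia). Fut7 stood 6.35 above the median of the other Fut genes, in place of 5.38. An offset of 16 gave 5 genes lower, 2 pathway genes higher, medians of -0.29 (B3galt) and 1.11 (St6gal), and a Fut7 distance of 5.79. Without a filter on dim probes, medians were -0.060 (Galnt), -0.13 (Mgat), -0.039 (B3gnt), -0.0070 (B3galt), -0.032 (Fut), 0.10 (St3gal), 0.084 (St6galnac) and 0.033 (St8sia). With both RNAs above background, 2 genes were higher, 0 pathway genes were higher, medians were 1.55 (Gcnt), 2.33 (Fut), -0.77 (St3gal) and 0.053 (St6galnac), and Fut7 stood 6.18 above Fut8 at -0.76, the other Fut gene left. Median centring lowered the median of all genes to -0.059 and gave 2 pathway genes lower, medians of -0.30 (Mgat) and -0.31 (B3galt) and a Fut7 distance of 5.27. The mean of all probes gave -0.13 for Mgat. Array 1 alone gave 3 pathway genes higher and 0.15 for Chst, and array 2 alone 4 genes lower and a Fut7 distance of 5.57. The looser threshold gave 7 genes lower, and 1345 and 880 of all genes higher and lower, or 10.4% and 6.83%. Class medians rest on few genes, and their sign is unsettled for Gcnt, B3gnt, B4galt, Fut, St3gal, St8sia and Chst. No paired analysis was possible because there was 1 RNA pair. Signal over background limits the dim genes, whose ratios the offset pulls towards 0.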
